A study of Homo sapiens with 12 samples.

Results

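The 10 genes described here encode replication-dependent histones: the linker histones H1-2, H1-3, H1-4 and H1-5, the core histones H2AC6 and H2AC20 of the H2A class, H2BC5, H2BC12 and H2BC21 of the H2B class, and H4C3 of the H4 class. They were taken by Ensembl ID out of 31707 genes with a read in at least 1 library, and their symbols were assigned when the set was drawn up, since the files hold IDs alone. Other histone genes are not analysed here. The RNA came from U373-MG, a human glioblastoma cell line, in RNA immunoprecipitation sequencing (RIP-seq) of endogenous ADAR3, a member of the ADAR family that binds double-stranded RNA. Of the 12 libraries, 4 came from immunoprecipitation (IP) of ADAR3, 4 from IP with pre-immune serum, which shows what the procedure recovers without the antibody, and 4 from input RNA. All groups shared the line, its medium with fetal bovine serum and ultraviolet crosslinking at 150 mJ/cm2, and the labels name no genetic change in any of them. The markers of the glial type could not be checked against the label, because the IDs of marker genes are not paired with names here.

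Replication-dependent histone mRNAs are made in S phase, when newly copied DNA has to be packed into nucleosomes. Most of them end in a conserved stem-loop bound by the stem-loop binding protein SLBP instead of a poly(A) tail, although several of these genes are also known to give polyadenylated forms. The core histones H2A, H2B and H4 form the nucleosome together with H3, and H1 proteins bind the linker DNA between nucleosomes. Libraries were made after depletion of ribosomal RNA, a method that keeps RNAs with no tail, whereas the molecule label reads polyA RNA. Both IPs and the input came from the same line. Levels here are shares of the RNA in each library, and neither cells in S phase nor histone RNA per cell was measured.

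Reads assigned to genes numbered 23999234 to 30156884 per library in ADAR3 IP, 1875461 to 4946149 in pre-immune IP and 4873428 to 12772412 in input. Each of the 10 genes had 418 to 12193 reads per library in ADAR3 IP, 25 to 1720 in pre-immune IP and 395 to 7990 in input. The labels do not tie replicates to separate cultures, and p-values therefore cover only library-to-library spread, possibly of technical origin. Levels are in CPM (a gene's reads relative to all reads of the library that were assigned to genes), which sets the IP and input tables on 1 scale although their authors normalized them separately. For that reason differences from input are given as values and by whether the libraries of the groups overlap, with no test.

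Of the 10 genes, 8 lie in the histone cluster of chromosome 6 and 2 on chromosome 1 (GRCh38, positions from RefSeq). The linker histone genes are H1-2 (ENSG00000187837) at chr6:26055740-26056470, H1-3 (ENSG00000124575) at chr6:26234212-26234987, H1-4 (ENSG00000168298) at chr6:26156329-26157115 and H1-5 (ENSG00000184357) at chr6:27866792-27867588. H4C3 (ENSG00000197061) lies at chr6:26103933-26104337 and H2AC6 (ENSG00000180573) at chr6:26124172-26124690. H2BC5 (ENSG00000158373) is annotated at chr6:26158121-26171349, a span of 13229 bases that also overlaps 2 other annotated genes, and H2BC12 (ENSG00000197903) at chr6:27138293-27146858, which overlaps the histone gene H4C9. Whether reads of these overlapping genes were counted once or left out is not given in the sources used here. H2AC20 (ENSG00000184260) at chr1:149886918-149887411 and H2BC21 (ENSG00000184678) at chr1:149884459-149886682 stand head to head.

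The sequences before the start sites are shown for the 4 linker histone genes, which share an arrangement of motifs, and for the head-to-head pair H2AC20 and H2BC21, picked after its values were seen, whose starts face each other across 1 stretch. RefSeq windows (GRCh38.p14) matched 9 of the 10 genes. The 130 bases before each H1 start are printed 5′ to 3′ on the gene's strand. The capitals mark AAACACA, the core of the element known as the H1 box, then CCAAT and then TATATA, searched on both strands.

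H1-2: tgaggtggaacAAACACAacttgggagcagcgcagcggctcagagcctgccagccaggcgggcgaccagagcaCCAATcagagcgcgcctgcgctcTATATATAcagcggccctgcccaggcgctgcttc
H1-3: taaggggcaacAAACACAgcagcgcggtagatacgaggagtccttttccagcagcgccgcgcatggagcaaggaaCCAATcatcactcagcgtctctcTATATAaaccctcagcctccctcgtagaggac
H1-4: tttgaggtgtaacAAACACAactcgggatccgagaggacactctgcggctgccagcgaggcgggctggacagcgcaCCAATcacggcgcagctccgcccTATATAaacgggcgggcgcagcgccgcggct
H1-5: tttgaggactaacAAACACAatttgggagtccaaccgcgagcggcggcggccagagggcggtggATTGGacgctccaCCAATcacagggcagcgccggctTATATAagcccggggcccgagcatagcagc

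In all 4 the first marked AAACACA began 117 to 119 bases before the start, and H1-5 held a further CCAAT on the other strand. Within the 250 bases before the start, AAACACA was found in these 4 of the 9 genes and in 4.82% of all 35116 promoter windows. CCAAT was found in 9 of 9 and in 32% of windows, and TATATA in 5 of 9 and in 3.73%. A match of letters is a description of the window and does not show that a factor binds there.

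The 235 bases between the starts of H2AC20 and H2BC21 (chr1:149886683-149886917) are printed on the strand of H2AC20, so that H2BC21 reads away from the left end on the opposite strand. The capitals mark TATAAA, the octamer ATTTGCAT and CCAAT on either strand.

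H2AC20 and H2BC21: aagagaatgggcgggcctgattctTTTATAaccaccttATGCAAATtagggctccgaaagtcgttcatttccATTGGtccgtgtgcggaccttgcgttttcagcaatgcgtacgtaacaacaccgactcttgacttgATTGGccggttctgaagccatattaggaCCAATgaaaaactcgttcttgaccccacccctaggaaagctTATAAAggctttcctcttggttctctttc

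Each gene had a TATAAA pointing towards its own start, 29 bases before it for H2AC20 and 30 for H2BC21, and 3 CCAAT motifs lay between them. The octamer was found in 4 of the 9 genes (H2AC6, H2AC20, H2BC12 and H2BC21) against 1.63% of all windows, and TATAAA in 7 of 9 against 10.7%. The same octamer in the shared stretch counts for both H2AC20 and H2BC21, as do its 3 CCAAT motifs in the count above. The histone counts are by gene and the shares by window. Nothing measured here bears on the promoters themselves.

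All 10 histone mRNAs made up less of the ADAR3 IP than of the input. In 10 of the 10 genes the highest ADAR3 IP library stood below the lowest input library, as did 31.7% of the 11112 genes tested between the IPs, and 0 of 10 showed the opposite order, against 29.3%. As a log2 ratio to input, ADAR3 IP had a median of -1.55 over the 10 genes, with a range of -3.29 to -0.65, against -0.01 over all tested genes. The lower quartile of all tested genes was -0.54, and all 10 histone genes lay below it. The tested genes were kept for a mean of at least 50 normalized counts over the 8 IP libraries, whatever their input level. Genes scarce in the IPs but not in input are thus missing from every share, quartile and rank given against input. Together the 10 genes took 0.314% ± 0.0226 of the reads in input (SD, n = 4) and 0.124% ± 0.0242 in ADAR3 IP.

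The pre-immune IP, made with serum in place of the antibody, also held less of these mRNAs than input did. Its libraries were all below those of input in 9 of the 10 genes, against 16.3% of all tested genes, and all above in 0 of 10, against 5.93%. The median log2 ratio over input was -1.46, with a range of -2.26 to -0.57, where all tested genes had a median of -0.41. The exception was H2AC20, whose pre-immune replicate 3 exceeded the lowest input library; without that library all 10 were separated. The 10 genes took 0.138% ± 0.0263 of pre-immune reads, and their share was 0.101% to 0.158% in the ADAR3 IP libraries and 0.103% to 0.159% in the pre-immune ones, so that the summed shares of both IPs overlapped. The comparisons of each IP with input share the same 4 input libraries.

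**Figure D1:**
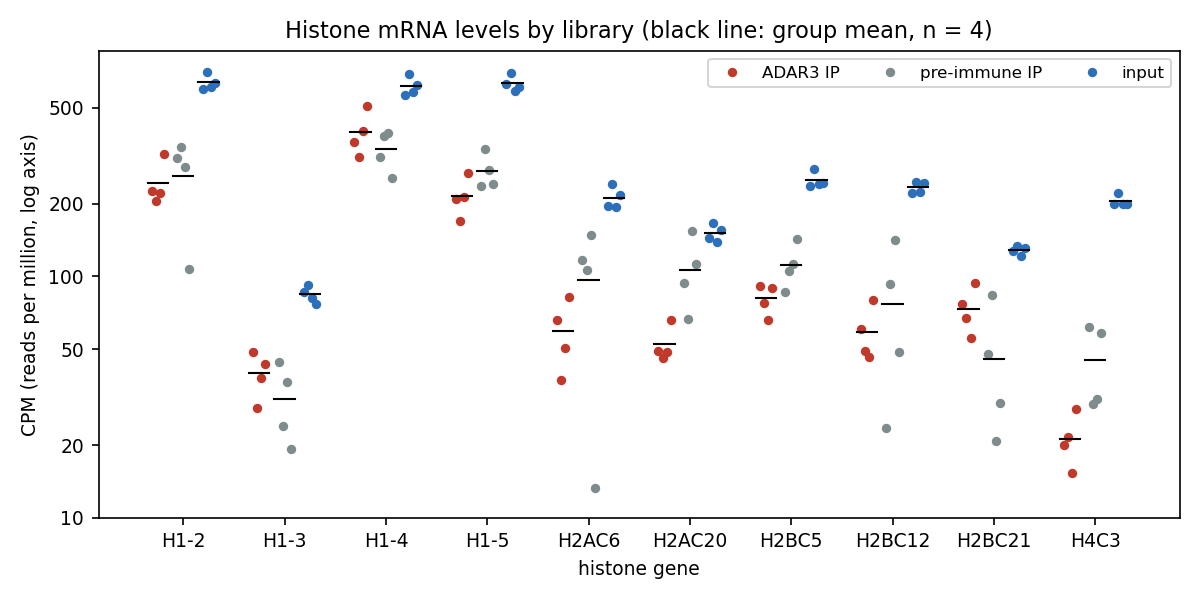
Level of each histone mRNA in CPM (log axis) in the 4 libraries of each group, 1 point per library, with a black line at the group mean. Input points sit above all ADAR3 IP points for the 10 genes, and the pre-immune points of H2AC6 spread from 13.3 to 148 CPM.

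**Figure D2:**
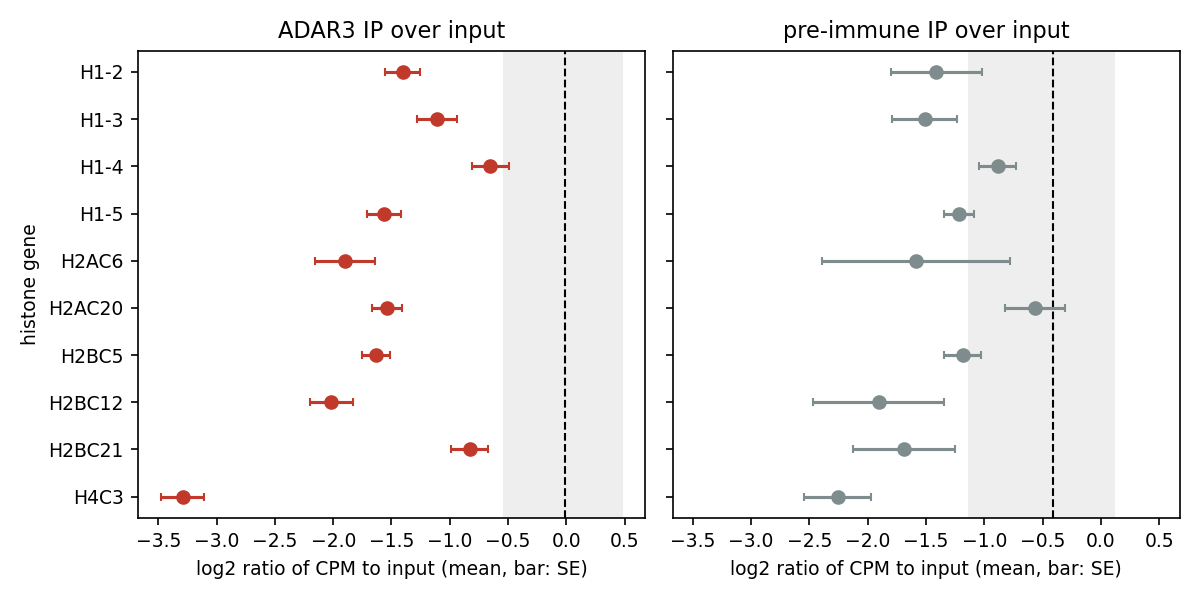
Log2 ratio of CPM to input for ADAR3 IP (left) and pre-immune IP (right), with points at the difference of means and bars of 1 SE (n = 4 libraries a group). The dashed line and grey band are the median and the quartiles of the 11112 tested genes; H4C3 lies farthest to the left in both panels, at -3.29 and -2.26.

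H4C3, which encodes the core histone H4, was the gene with the lowest share relative to input. It stood at 199, 222, 198 and 199 CPM in input replicates 1 to 4 and at 20.1, 21.5, 15.3 and 28.3 CPM in ADAR3 IP. In pre-immune IP it stood at 61.7, 29.7, 31.0 and 58.1 CPM. The 3 groups did not overlap, with input highest and ADAR3 IP lowest. The ratio of ADAR3 IP over input was -3.29 ± 0.18 on the log2 scale (SE), a level 9.77-fold below input. Among the 11112 tested genes, kept for their IP counts, 7 had a lower ratio. Pre-immune IP was 4.78-fold below input, and 999 tested genes had a lower ratio there. In normalized counts, the authors' scaled read counts, H4C3 had 189.5 ± 48.2 (SD, n = 4) with the antibody and 428 ± 171 with serum. limma gave -1.11 ± 0.41 (SE) for the log2 fold change of ADAR3 IP over pre-immune IP, short of the threshold (adjusted p = 0.181). H4C3 passed the threshold in the authors' deposited table, with a log2 fold change of -1.17 and an adjusted p of 0.0121, and with DESeq2 rerun on the recovered reads (adjusted p = 0.0171).

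The 4 linker histone genes together held most of the reads of the 10 genes, a sum that also reflects how many genes of each class were taken and their lengths. They summed to 1960 ± 148 CPM (SD, n = 4) in input, to 893 ± 179 with the ADAR3 antibody and to 899.6 ± 199 with serum. H1-4, a major somatic H1 subtype, stayed closest to its input level in ADAR3 IP among the 10 genes. Its levels were 359, 311, 401 and 508 CPM in ADAR3 IP, 311, 382, 391.7 and 256 CPM in pre-immune IP, and 564 to 686 CPM in input. Both IPs lay below input without overlap and overlapped each other, and the log2 ratios to input were -0.65 ± 0.16 and -0.88 ± 0.16 (SE).

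H1-2, another somatic subtype, had 206 to 320.1 CPM in ADAR3 IP, 107 to 345 in pre-immune IP and 596 to 704 in input. Its ratio to input was -1.40 ± 0.15 with the antibody and -1.41 ± 0.39 with serum (log2, SE). H1-5 had 170.2 to 269 CPM in ADAR3 IP, 236 to 337 in pre-immune IP and 588 to 692 in input, with ratios of -1.56 ± 0.14 and -1.22 ± 0.13. H1-3 was the least abundant of the class, at 28.5 to 48.4, 19.2 to 44.1 and 76.6 to 92.5 CPM in the same order, with ratios of -1.11 ± 0.17 and -1.51 ± 0.28. For each of these 3 genes the IPs overlapped each other and lay entirely below input.

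None of the 4 linker histone genes passed the test of ADAR3 IP against pre-immune IP. The log2 fold changes were -0.08 ± 0.32 for H1-2 (SE), 0.32 ± 0.37 for H1-3, 0.15 ± 0.17 for H1-4 and -0.43 ± 0.17 for H1-5, with limma adjusted p-values of 0.908, 0.656, 0.659 and 0.2203. The 95% confidence interval for H1-4 ran from -0.23 to 0.54 and that for H1-2 from -0.77 to 0.62.

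The H2A genes parted in the pre-immune libraries chiefly in replicate 4, where H2AC20 had 112 CPM and H2AC6 had 13.3. In pre-immune replicates 1 to 3 each gene stood above all of its ADAR3 IP libraries. H2AC20 had 49.3, 45.9, 48.5 and 66.0 CPM in ADAR3 IP, 93.6, 66.9, 153 and 112 CPM in pre-immune IP and 145, 166, 139 and 156 CPM in input. The ADAR3 IP libraries lay below all others, and pre-immune replicate 3 reached into the range of input. H2AC20 was the only one of the 10 genes that limma called between the IPs. Its normalized counts averaged 466 ± 81.2 with the antibody and 993 ± 298 with serum (SD, n = 4). limma put its log2 fold change at -1.05 ± 0.26 (SE) with an adjusted p of 0.0464. The call was near the threshold. It was lost when replicate number was added as a block (limma adjusted p = 0.0522), under both other scalings (0.0684 and 0.0728) and with group variance weights (0.155), and when any 1 library other than pre-immune replicate 2 was left out (0.0563 to 0.153). On the recovered reads, edgeR and DESeq2 also called H2AC20 lower (adjusted p = 0.0462 and 0.000372). The authors' deposited table gives a log2 fold change of -1.09 and an adjusted p of 0.000609.

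H2AC6 had 66.2, 37.2, 50.6 and 82.4 CPM in ADAR3 IP and 117, 106, 148 and 13.3 CPM in pre-immune IP, with 194 to 241 CPM in input. The low pre-immune value came from 25 reads in replicate 4, the shallowest library, and the other 3 pre-immune libraries lay above all 4 of ADAR3 IP. With all libraries limma gave -0.40 ± 0.64 on the log2 scale (SE), with an adjusted p of 0.753. Without pre-immune replicate 4 it was -1.18 and passed the threshold (limma adjusted p = 0.0307), and H2AC20 then did not (0.0563).

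Among the H2B genes, H2BC21 had the highest ratio of ADAR3 IP over pre-immune IP of all 10. It stood at 76.6, 67.5, 55.5 and 93.4 CPM in ADAR3 IP, 47.5, 83.7, 20.7 and 29.9 CPM in pre-immune IP and 121 to 134 CPM in input. Pre-immune replicate 2 lay within the range of ADAR3 IP and the other 3 below it. This difference of 0.78 ± 0.42 on the log2 scale (SE) had a 95% confidence interval from -0.14 to 1.69 and did not pass limma's test (adjusted p = 0.361). H2BC5 had 65.7 to 91.6 CPM in ADAR3 IP, 86.1 to 143 in pre-immune IP and 238 to 277 in input, with a difference of -0.53 ± 0.21 between the IPs (log2, SE) and a limma adjusted p of 0.216. Its IP groups did not overlap in normalized counts but did in CPM. H2BC12 had 46.3 to 79.8 CPM in ADAR3 IP, 23.7 to 141 in pre-immune IP and 222 to 246 in input, with a difference of -0.19 ± 0.46 (log2, SE) and a limma adjusted p of 0.836. Without pre-immune replicate 1, 2 or 3 that difference was -0.65, 0.01 and 0.16.

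The head-to-head genes H2AC20 and H2BC21, whose shared stretch is printed above, kept a steady ratio in input and in ADAR3 IP but not in pre-immune IP. Reads of H2AC20 over reads of H2BC21 were 1.14, 1.25, 1.15 and 1.19 in input replicates 1 to 4. The same ratio was 0.644, 0.681, 0.875 and 0.707 in ADAR3 IP, below every input library. In pre-immune IP it was 1.97, 0.799, 7.41 and 3.75, with 3 libraries above input and 1 below. H2BC21 had 235, 234, 91 and 56 reads in those libraries. Over all tested genes the median coefficient of variation in CPM was 51.3% in pre-immune IP, 14.4% in ADAR3 IP and 7.47% in input. The pair was picked for the difference in its ratio after its values were seen, so that difference was not tested. Both genes were below input in ADAR3 IP, with log2 ratios of -1.54 and -0.83.

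**Figure D3:**
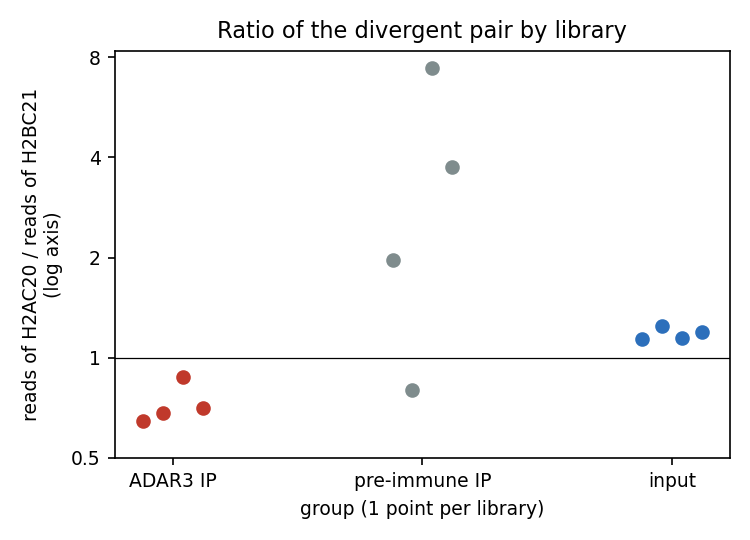
Reads of H2AC20 divided by reads of H2BC21 (log axis), 1 point per library, by group, with a line at 1. ADAR3 IP points lie between 0.644 and 0.875, input points between 1.14 and 1.25, and pre-immune points between 0.799 and 7.41.

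Setting ADAR3 IP against pre-immune IP compares the share of each RNA recovered with the antibody to its share recovered with serum. All 10 histone genes had a mean of at least 50 normalized counts over the 8 IP libraries and were tested among the 11112 genes above that minimum. limma on log2(normalized count + 1) called 0 of the 10 genes higher, against 2.33% of all tested genes, and 1 lower, against 1.74% (Benjamini-Hochberg adjusted p under 0.05). An unadjusted p under 0.05 was reached by 4 of the 10 (H4C3, H1-5, H2BC5 and H2AC20, all with a negative fold change), against 17.5% of all tested genes in either direction. With edgeR's quasi-likelihood test, run on reads recovered from the values, the calls were 299 genes higher (2.69%) and 195 lower (1.75%), with 0 and 1 of the histone genes. DESeq2 on the same reads called 623 higher (5.61%) and 730 lower (6.57%), with 0 and 2. Of genes with an adjusted p in the authors' deposited table, 8.75% were higher and 5.63% lower, and of the histone genes 0 were higher and 2 lower, H4C3 and H2AC20.

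The median log2 fold change of the 10 genes between the IPs was -0.30, and that of all tested genes was 0.25, with quartiles of -0.23 and 0.93. In normalized counts every ADAR3 IP library lay below every pre-immune library for 3 of the 10 genes (H4C3, H2BC5 and H2AC20), which held for 6.68% of all tested genes, and above for 0 of 10 against 8.8%. Each IP library used all RNA recovered and was scaled afterwards, so the fold changes compare shares of the recovered RNA and not its amount. Under library size scaling and TMM factors the median over all tested genes, 0.25, became 0.33 and 0.39, and that of the histone genes, -0.30, became -0.21 and -0.15. They changed the calls over all genes from 259 higher and 193 lower to 333 and 147, and to 449 and 129. The sign of H1-2 turned under both. edgeR and DESeq2 were run on the recovered reads, with scaling factors of their own set over the tested genes. Their medians were -0.00063 and -0.06 over all tested genes and -0.37 and -0.43 over the histone genes. The parts of scaling and of model in these shifts were not tested.

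**Figure D4:**
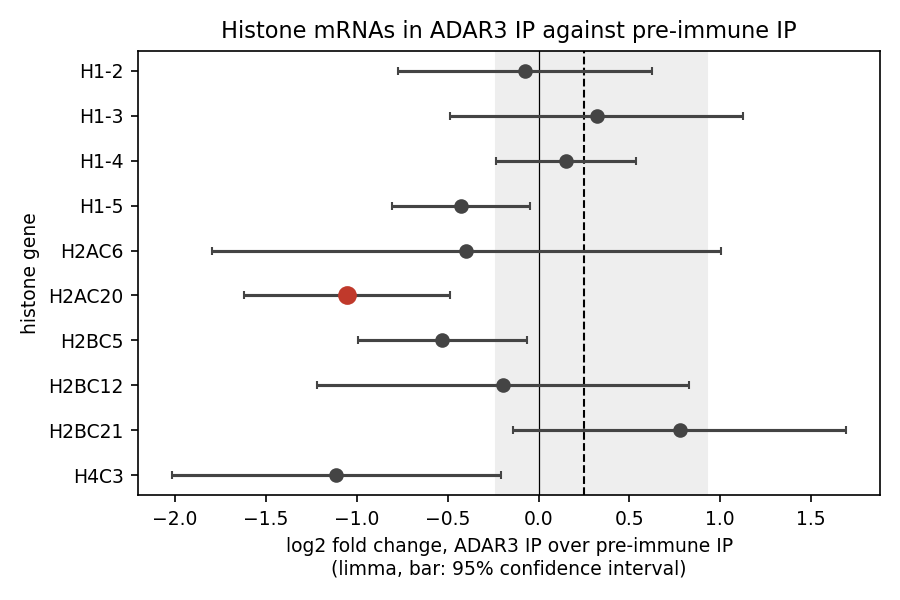
Log2 fold change of ADAR3 IP over pre-immune IP for each histone gene, with the 95% confidence interval of the limma fit (n = 4 libraries a group). The dashed line and grey band are the median and quartiles of all tested genes, and the larger red point marks H2AC20, the gene with an adjusted p under 0.05 (0.0464).

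Spread between replicates differed from gene to gene within the family. The coefficient of variation in CPM was 4.20% to 10.4% in input, 14.9% to 33.1% with the antibody and 16.98% to 67.4% with serum. Medians over the 10 genes were 7.50%, 21.5% and 37.4%, beside 7.47%, 14.4% and 51.3% over all tested genes. In pre-immune IP, H1-5 and H1-4 varied least, at 16.98% and 19.1%, and H2BC12, H2BC21 and H2AC6 most, at 67.4%, 61.2% and 60.4%. Pre-immune levels of H2AC6 differed 11.1-fold between the highest and the lowest library, while H1-5 differed 1.43-fold. In that group H2AC6 had as few as 25 reads in a library and H1-5 no fewer than 454. The part of read counts in these spreads was not tested. The extremes did not come from 1 pre-immune library: replicate 4 was the lowest for 4 genes and the highest for H2BC5, and replicate 3 was the highest for 4. In ADAR3 IP, replicate 4 was the highest for 8 of the 10 genes, and in input, replicate 2 for all 10.

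The makeup of the 10 genes' reads is given by class. Linker histone genes took 62.4% ± 0.343 of the reads of the 10 genes in input (SD, n = 4), 72.0% ± 2.57 with the antibody and 64.9% ± 4.20 with serum. The range in ADAR3 IP was 69.8% to 75.6%, above the 62.0% to 62.8% of input and the 60.7% to 69.2% of pre-immune IP. Within the class, the share of H1-4 was 19.5% ± 0.470 in input and 31.8% ± 2.17 in ADAR3 IP, that of H1-3 2.68% ± 0.179 and 3.22% ± 0.585, that of H1-2 20.2% ± 0.236 and 19.6% ± 0.8293, and that of H1-5 20.04% ± 0.596 and 17.4% ± 0.724. With H1-4 left out of both sums, the class took 52.6% to 53.8% of the reads of the other 9 genes in input and 57.0% to 62.6% in ADAR3 IP, still without overlap, but pre-immune IP, at 47.7% to 59.3%, then overlapped ADAR3 IP. The H2A genes took 11.6% ± 0.331 in input, 8.94% ± 0.655 with the antibody and 14.5% ± 3.62 with serum. H2B genes took 19.5% ± 0.353, 17.3% ± 2.19 and 17.1% ± 3.99 in the same order, and H4C3 took 6.51% ± 0.166, 1.73% ± 0.328 and 3.53% ± 1.91. These shares describe 10 chosen genes and were not tested.

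**Figure D5:**
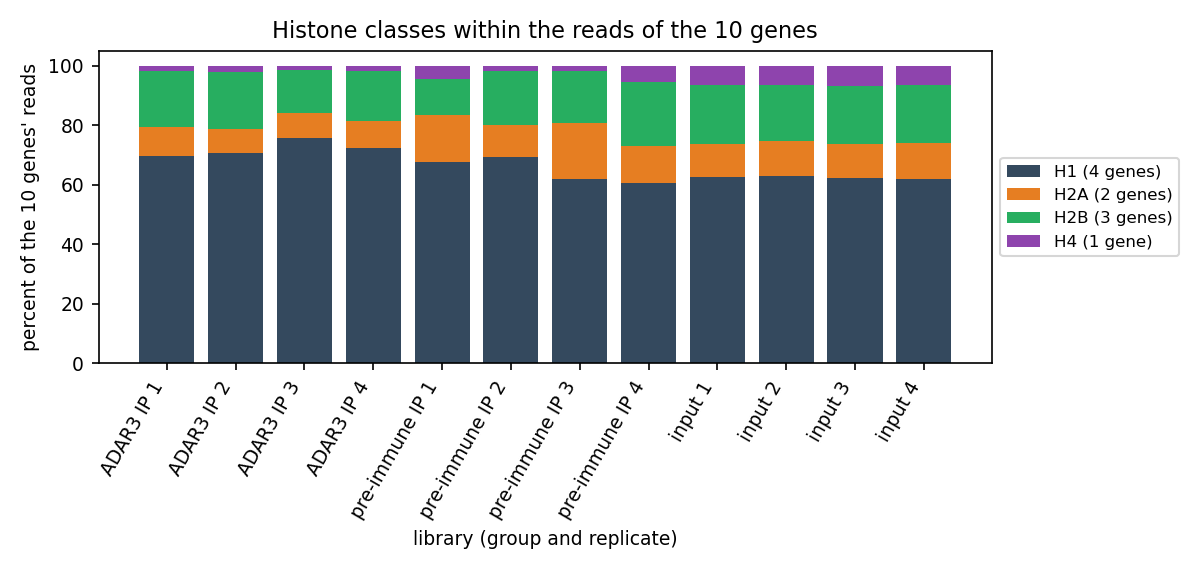
Share of each histone class in the summed reads of the 10 genes, in percent, for each of the 12 libraries. The H1 part is 69.8% to 75.6% in the ADAR3 IP libraries and 62.0% to 62.8% in input, and the H4 part, which is H4C3 alone, shrinks from 6.51% on average in input to 1.73% in ADAR3 IP.

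Levels can be compared between genes only per length, and this was done for the 8 genes with a short annotated span (405 bases for H4C3 to 2224 for H2BC21). Which form of each mRNA the reads came from was not measured. The span of H2BC21 is far longer than those of the others, 797 bases at most, so its place rests on that span. In input, the order by CPM per kilobase of annotated span was H1-2 (869 ± 67.2, SD, n = 4), H1-5 (789 ± 56.2), H1-4 (778 ± 69.6), H4C3 (505 ± 28.6), H2AC6 (409 ± 42.6), H2AC20 (306 ± 24.5), H1-3 (108 ± 8.80) and H2BC21 (57.5 ± 2.42). The ranges of H1-2 and H1-5 overlapped, as did those of H1-5 and H1-4, and no other neighbours did. In ADAR3 IP, H1-4 came first at 502 ± 107, H1-2 followed at 332 ± 71.3, and H4C3 fell from the fourth to the sixth place at 52.6 ± 13.2, where its range overlapped that of H1-3 (51.0 ± 10.96). In pre-immune IP the order was led by H1-4 (426 ± 81.3), H1-2 (357 ± 144) and H1-5 (342 ± 58.1), whose ranges overlapped, and H4C3 stood sixth at 111 ± 42.3.

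Across the 12 libraries, 2 other genes had profiles most like the mean of the 10 histone genes, out of 8904 compared. Likeness was the root mean square difference of log2(CPM + 1) after each gene's own mean was taken off. It was 0.13 for ENSG00000170889 and 0.14 for ENSG00000108602, whose names are not paired with these IDs here, against a median of 0.87 over the genes compared. ENSG00000170889 stood at 356 ± 36.7 CPM in input, 127 ± 26.4 with the antibody and 158 ± 20.3 with serum (SD, n = 4), and ENSG00000108602 at 592 ± 44.9, 229 ± 17.1 and 241 ± 40.3. Of the histone genes, H1-5 was closest to the family mean (0.16, with 5 other genes closer) and H4C3 farthest from it (0.79, with 3441 closer). Each histone gene is part of that mean, which lowers its own distance, and the other genes are not.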

How the data were processed

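The 12 RIP-seq libraries of U373-MG cells were grouped by their titles into ADAR3 IP, pre-immune IP and input, 4 each. Per the labels' protocols, libraries were strand-specific and amplified for 15 cycles, from 1 µg of RNA for input. STAR 2.7.7a, featureCounts, DESeq2 and GRCh38 are named, without roles, in the submitters' processing notes; neither the gene annotation nor how strand was handled is named there. The authors deposited a normalized signal, read counts over a size factor per library, in separate IP (28556 genes) and input (28061 genes) tables, and, beside the IP values, log2 fold changes and adjusted p-values of the authors' own. As 100% of values were whole multiples of 1 read (tolerance 0.001 reads), reads and CPM were recovered.

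ADAR3 IP was tested against pre-immune IP with limma 3.58.1 (R 4.3.3, variance trend) on log2(normalized count + 1), over genes with a mean of at least 50 and with Benjamini-Hochberg adjustment, because the deposited values are normalized. edgeR 4.0.16 and DESeq2 1.42.0 on recovered reads were alternatives. Ratios to input are differences of mean log2(CPM + 0.1). The named genes were the 10 histone genes and the 2 genes of closest profile. The genes, lists and minimum were chosen with earlier results of these data known. Planned lists of related genes and of cell type markers were not used, because 0 of the 31707 Ensembl IDs are paired with symbols in the reference table. Replicate numbers were not taken to pair libraries: deviations of same-numbered IP libraries correlated at -0.0016 to 0.0236. No replicate pair agreed within counting noise (chi-square per degree of freedom of 2.53 or more).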

Additional observations from a re-analysis of the deposited data

Results flagged for a closer look

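The highest or lowest library was compared with the others of its group in 33 sets of 4 values, the CPM of the 10 genes and their summed share in each group, and 3 sets held a library farther from the rest than Dixon's 95% critical value allows. Chance gives such a gap in about 1 set in 20, and the sets share libraries. ADAR3 IP replicate 4 stood apart for H1-2, at 320.1 CPM against 206 to 225 in the other 3 libraries, and for H2AC20, at 66.0 CPM against 45.9 to 49.3. Input replicate 2 stood apart for H4C3, at 222 CPM against 198 to 199.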

How the results depend on the processing

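The H1 class share without H1-4, given above, was added after the class shares were seen. The 10 genes below input in ADAR3 IP stayed 10 and the 9 in pre-immune IP stayed 9 or 10 under 2 other scalings over 12 libraries and without any 1 library. The count of histone genes lower in ADAR3 IP than in pre-immune IP, 1, became 0 with no filter, library size scaling, TMM scaling, group variance weights or the replicate block, 2 with DESeq2, and 0 to 1 without 1 library; without pre-immune replicate 4 the 1 gene was H2AC6. Over all tested genes, 259 higher and 193 lower became 659 higher at a minimum of 10, 1493 higher with no filter, 449 higher with TMM scaling, 623 and 730 with DESeq2, and 142 and 55 with group variance weights. Leaving out 1 library gave 106 to 446 higher and 65 to 345 lower, the lowest without ADAR3 IP replicate 2 and the highest without pre-immune replicate 4. The replicate block gave 263 and 140; same-numbered libraries correlated at 0.0236 at most and 0 of 4 best with their own number. The sign of H1-2 turned with library size scaling (0.0064), TMM scaling (0.069) and without pre-immune replicate 1 or 2 (0.05 and 0.12), within a range of -0.44 to 0.12 over all left-out libraries. That of H2BC12 turned without pre-immune replicate 2 or 3 (0.01 and 0.16), within -0.65 to 0.16; neither gene passed the threshold. Leaving the 10 most abundant genes out of the totals raised the summed share to 0.173% for pre-immune IP and 0.348% for input. The causes were not tested. Leaving H1-4 out of the sums, which raises every other share by construction, moved 20 of the 27 remaining shares by more than 1 SD. Pre-immune values rest on 25 to 1720 reads, and pairs of libraries of that group differed by a chi-square of 33.8 to 52.8 per degree of freedom, more than counting error gives.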

Other observations

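Among the 8 histone genes of short annotated span, the ratio of ADAR3 IP over input rose with length at a Spearman rho of 0.67, and that of pre-immune IP over input at 0.095. For ADAR3 IP over pre-immune IP the rho was 0.74. These are descriptions across 8 genes that share the same libraries. The shortest gene, H4C3 (405 bases), had the lowest log2 ratio of ADAR3 IP over input (-3.29). H2AC20 (494 bases) and H2AC6 (519 bases) stood at -1.54 and -1.90, and the 4 linker histone genes of 731 to 797 bases between -1.56 and -0.65. The longest, H2BC21 (2224 bases), stood at -0.83. The part of fragment length, GC content or sequence in these values was not tested.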
